A study of Mus musculus with 15 samples.

Results

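The genes described here are 10 markers of adipocytes, the fat-storing cells that lie in bone marrow and in the tissue around a bone: Fabp4, Plin1, Cidec, Lpl, Scd1, Cfd, Adipoq, Retn, Lep and Pparg. They were chosen by name, through the transcript accession that each probe carries, and were represented by 13 of the 55681 probes and 10 of the 21154 named genes of the array. Cidec, Lpl and Retn had 2 probes each and the other 7 genes had 1. A gene with 2 probes is given by the brighter one unless the second is named.

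Expression was measured on 2-colour arrays in femoral midshaft or callus tissue of male C57BL/6J mice, labelled 9 weeks old, that carried no engineered allele. Flown mice (FLT) spent about 4 weeks on the International Space Station, and ground mice (G) were kept in matching hardware on Earth. Surgery mice had a segmental defect cut from the femur 4 days before launch, while Sham mice had no defect. The defect was filled with a poly(propylene fumarate)/tricalcium phosphate graft held by a pin, and a collagen sponge soaked in saline was sutured around the graft. G-Sham, FLT-Sham and G-Surgery held 4 mice each and FLT-Surgery 3, with 1 array for each mouse. The paper places the labelled age near the time of surgery. Tissue was taken after the flight or the matching ground period, when the mice were older.

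Several features limited these groups as a model. The Sham mice were unoperated by the labels, so the comparisons of Surgery with Sham hold the operation, graft and sponge together with the defect. The labelled tissue is callus in all 4 groups although a Sham femur had none. The carcasses were frozen and partly thawed before dissection, and the study names the limited quality of the RNA as a constraint. RNA came from milled bone segments, so fewer adipocytes and less adipocyte RNA per cell cannot be told apart.

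Adipocytes hold triglyceride in droplets coated with perilipins, take up fatty acids that lipoprotein lipase releases from blood lipids, and secrete hormones called adipokines. The nuclear receptor PPARγ drives their formation from stromal progenitors and switches on many of the genes named above. Marrow adipocytes share their progenitor with osteoblasts, and marrow fat is known to expand when bone is unloaded.

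The promoters of the 5 genes that passed the cut-off in at least 1 comparison below (Cfd, Adipoq, Cidec, Plin1 and Retn) are printed so that the stretch before their start sites can be read beside their values. Each spans 250 bases before to 50 bases after a RefSeq start site on GRCm38.p6 and is written 5′ to 3′ along the gene's strand. Capitals mark CCAAT and TGACTCA or their reverse complements. Cfd lies on the plus strand at chr10:79890603-79890902, Adipoq on the plus strand at chr16:23146286-23146585, Plin1 on the minus strand at chr7:79732727-79733026 and Retn on the plus strand at chr8:3655520-3655819. Cidec is on the minus strand and has one start region at chr6:113435711-113436010 and a second at chr6:113434715-113435014.
Cfd: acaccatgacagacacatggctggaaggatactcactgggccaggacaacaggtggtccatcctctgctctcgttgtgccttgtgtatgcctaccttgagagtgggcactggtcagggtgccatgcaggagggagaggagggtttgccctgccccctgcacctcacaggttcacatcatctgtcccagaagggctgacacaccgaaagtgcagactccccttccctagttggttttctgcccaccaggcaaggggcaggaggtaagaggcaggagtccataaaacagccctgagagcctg
Adipoq: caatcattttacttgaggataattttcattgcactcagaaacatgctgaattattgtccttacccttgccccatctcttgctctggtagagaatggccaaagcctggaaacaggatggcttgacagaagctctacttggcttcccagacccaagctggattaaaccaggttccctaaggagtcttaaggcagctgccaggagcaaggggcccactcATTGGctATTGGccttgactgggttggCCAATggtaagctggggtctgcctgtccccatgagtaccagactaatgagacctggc
Plin1: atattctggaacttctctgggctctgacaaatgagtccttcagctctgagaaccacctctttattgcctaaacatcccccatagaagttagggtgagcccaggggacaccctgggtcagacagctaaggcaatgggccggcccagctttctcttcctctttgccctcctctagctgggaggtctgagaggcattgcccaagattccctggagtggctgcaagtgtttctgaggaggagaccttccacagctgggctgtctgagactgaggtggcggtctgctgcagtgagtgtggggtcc
Retn: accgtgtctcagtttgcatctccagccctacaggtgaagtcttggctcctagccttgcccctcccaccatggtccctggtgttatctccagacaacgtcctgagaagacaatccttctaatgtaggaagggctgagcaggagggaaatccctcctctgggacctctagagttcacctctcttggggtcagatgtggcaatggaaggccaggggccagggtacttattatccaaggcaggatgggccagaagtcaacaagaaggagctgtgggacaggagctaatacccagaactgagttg
Cidec, first start: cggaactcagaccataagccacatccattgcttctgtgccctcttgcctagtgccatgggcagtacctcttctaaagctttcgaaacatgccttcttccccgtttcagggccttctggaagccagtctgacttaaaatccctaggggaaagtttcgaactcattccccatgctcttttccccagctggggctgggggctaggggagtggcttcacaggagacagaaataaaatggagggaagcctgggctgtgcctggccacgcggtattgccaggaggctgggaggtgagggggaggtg
Cidec, second start: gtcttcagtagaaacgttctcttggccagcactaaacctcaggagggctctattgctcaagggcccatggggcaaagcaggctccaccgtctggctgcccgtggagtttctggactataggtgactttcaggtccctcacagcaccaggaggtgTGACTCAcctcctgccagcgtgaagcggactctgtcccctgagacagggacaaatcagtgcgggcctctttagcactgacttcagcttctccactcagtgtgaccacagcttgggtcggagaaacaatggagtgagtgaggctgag

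The table of promoters held 10 sequences of 7 of the genes, and Fabp4, Lpl and Scd1 had no entry in it. Both strands were searched for 6 motifs. The direct repeat that PPARγ binds with its partner, written as AGGTCA, any 1 base and AGGTCA again, was in 0 of the 10 promoters and in 0.0396% of all 32851 promoters. AGGTCA, which lies within that repeat, was in 2 of the 10, both of Pparg, and in 16.3% of all. TTGCGCAA, the palindrome of C/EBP factors, was in 1 (Lep) and in 0.183% of all, and TATAAA was in 1 (Pparg) and in 13.6% of all. CCAAT was in 3, with 3 matches in Adipoq alone, and in 37.4% of all. TGACTCA, the AP-1 site, was in 1 (the second start of Cidec) and in 5.20% of all. A motif match is a description of these letters, and 4 of the 10 promoters held none of the 6.

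Each array carried the sample in red (Cy5) and a reference RNA pooled from mouse cell lines in green (Cy3). The log2 ratio below is log2 of Cy5 over Cy3, and the Cy5 signal is the scanner's background-corrected, dye-normalized brightness in arbitrary units. The number of probes with Cy5 above background was 12861 to 18291 in G-Sham, 14812 to 21460 in FLT-Sham, 14303 to 20687 in G-Surgery and 12488 to 14257 in FLT-Surgery, so the detection of dim genes differed between groups. The arrays lay on 3 slides: slide 1 held 1 Sham array of each kind, 3 G-Surgery and 2 FLT-Surgery arrays, slide 2 held 2 of G-Sham, 3 of FLT-Sham and 1 of each Surgery group, and slide 3 held only G-Sham replicate 4. Precision is limited throughout by how few arrays there were.

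The reference split the genes into 2 sets. Fabp4, Lpl, Pparg, Scd1 and Retn were above background in the reference on all 15 arrays. Cfd, Adipoq and Plin1 were above it there on 1 array each, and Cidec and Lep on 0, so the ratios of these 5 genes were set mostly by the Cy5 signal. In Cy5, Pparg was above background on 14 of 15 arrays, Fabp4 and Lpl on 13, Cfd on 11 and Retn on 10. Scd1 was above it on 7, Cidec on 5, Adipoq on 4, Plin1 on 3 and Lep on 0. The scanner files held a log2 ratio of exactly 0 for the brighter probe of Cidec on 10 arrays, Plin1 on 4, Adipoq on 2 and Cfd on 1, in each case with neither channel above background. Other such spots carried a ratio other than 0, those of Lep on all 15 arrays among them, and no ratio of either kind is a measured level.

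**Figure D1:**
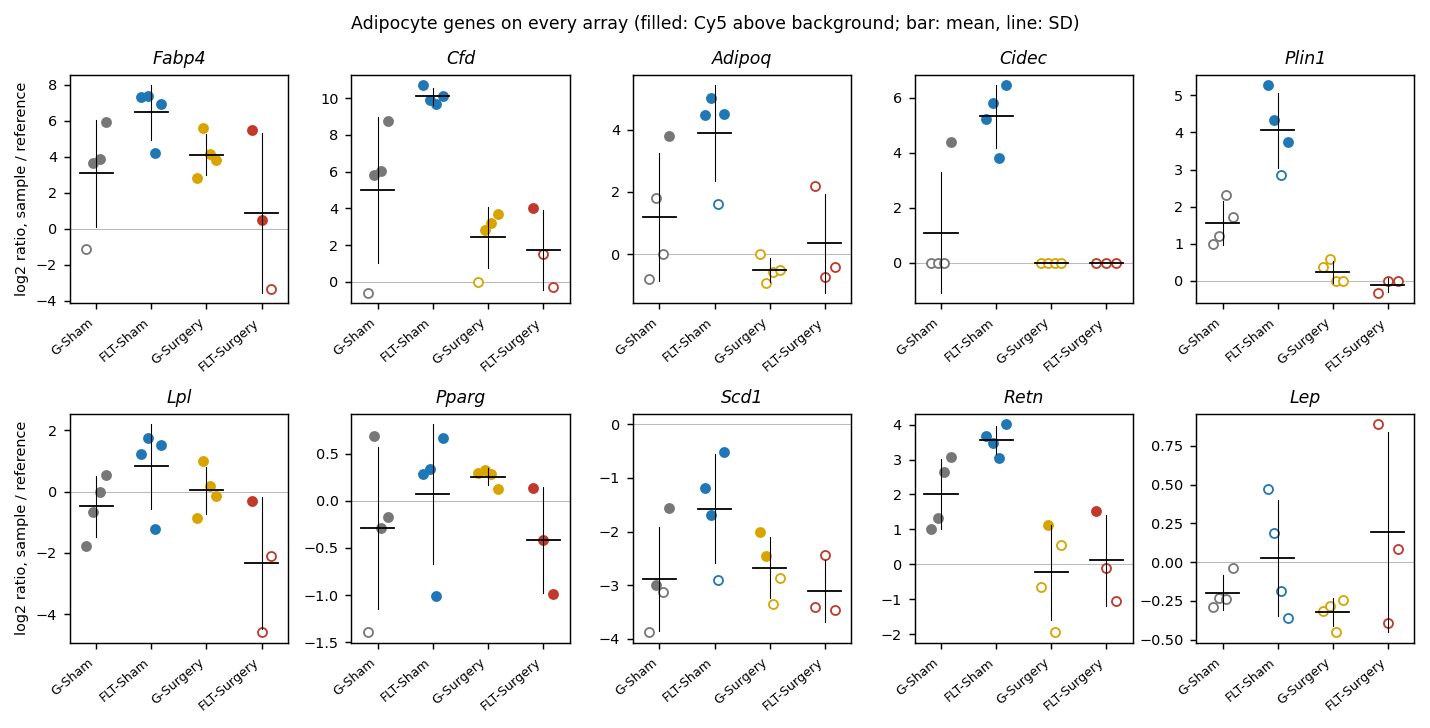
Log2 ratio of sample over reference (vertical axis) for each of the 10 genes, 1 point per array in the 4 groups, filled where Cy5 was above background, with the group mean as a bar and the SD as a line. Cfd in FLT-Sham sat between 9.66 and 10.72 with every point filled, while the FLT-Surgery points of Cidec, Plin1 and Adipoq were all open.

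Fabp4 (chr3:10204342-10208616) encodes the fatty acid carrier of the adipocyte cytoplasm. Its log2 ratio was -1.13, 3.63, 3.87 and 5.94 in G-Sham replicates 1, 3, 4 and 5, and 7.33, 7.41, 4.19 and 6.95 in FLT-Sham replicates 4, 6, 8 and 9. It was 2.83, 5.58, 4.18 and 3.84 in G-Surgery replicates 1, 3, 4 and 5, and 5.51, 0.46 and -3.37 in FLT-Surgery replicates 1, 3 and 5. All 4 groups overlapped, and FLT-Surgery held both a high and a very low array. The Cy5 signal ranged from 3715 to 35956 in FLT-Sham and from 46.2 to 6797 in FLT-Surgery. Group means fell in the order FLT-Sham (6.47 ± 1.53, SD, n = 4), G-Surgery (4.11 ± 1.14, n = 4), G-Sham (3.08 ± 2.99, n = 4) and FLT-Surgery (0.87 ± 4.45, n = 3), with each neighbouring pair overlapping.

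Plin1 (chr7:79721164-79732904) encodes perilipin 1, which coats the droplet of adipocytes and controls lipase access to it. Its log2 ratio was 0.98, 1.20, 2.31 and 1.72 in G-Sham replicates 1, 3, 4 and 5, and 5.28, 4.33, 2.85 and 3.75 in FLT-Sham replicates 4, 6, 8 and 9. It was 0.37, 0.58, 0 and 0 in G-Surgery and -0.34, 0 and 0 in FLT-Surgery. All FLT-Sham ratios lay above all others. No G-Sham or Surgery array was above background, nor was FLT-Sham replicate 8, so the order among those arrays was not measured. Cy5 was above background on only 3 arrays, all FLT-Sham, where the 4 signals ran from 77.6 to 442.

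Cidec (chr6:113424634-113435760) encodes a droplet protein that fuses small droplets into large ones. The log2 ratio of the brighter probe was 0, 0, 0 and 4.38 in G-Sham replicates 1, 3, 4 and 5, and 5.22, 5.81, 3.80 and 6.46 in FLT-Sham replicates 4, 6, 8 and 9. It was exactly 0 on all 7 Surgery arrays. The Cy5 signal of this probe was 224 to 669 in FLT-Sham and at most 24.6 in the Surgery groups. This probe was above background on the 4 FLT-Sham arrays and G-Sham replicate 5 and not elsewhere. The second probe was above background on 1 of 15 arrays, G-Surgery replicate 1. Its means were 0.35 ± 1.12 in G-Sham, -0.78 ± 0.30 in FLT-Sham, 0.58 ± 0.88 in G-Surgery and -0.24 ± 0.84 in FLT-Surgery (SD). It did not show the FLT-Sham level of the brighter probe.

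Lpl (chr8:68880555-68906932) encodes lipoprotein lipase, which is also made by muscle. Its log2 ratio was -1.77, -0.65, -0.03 and 0.54 in G-Sham, 1.23, 1.74, -1.22 and 1.53 in FLT-Sham, -0.87, 0.98, 0.18 and -0.13 in G-Surgery and -0.30, -4.59 and -2.11 in FLT-Surgery, replicates in the order given above. FLT-Surgery replicates 3 and 5 were the lowest of the 15, and the other groups overlapped. The second probe put the same 3 FLT-Surgery arrays at 0.68, 0.10 and -3.67, so that replicate 3 was low by the brighter probe only. Scd1 (chr19:44394450-44407709), the desaturase that makes monounsaturated fatty acids, was lower than the reference in every group, at -2.89 ± 0.97 in G-Sham, -1.57 ± 1.01 in FLT-Sham, -2.67 ± 0.57 in G-Surgery and -3.10 ± 0.57 in FLT-Surgery (SD).

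Cfd (chr10:79890853-79892655) encodes adipsin, a complement protease that adipocytes secrete. Its log2 ratio was -0.60, 5.81, 6.06 and 8.75 in G-Sham replicates 1, 3, 4 and 5, and 10.72, 9.90, 9.66 and 10.10 in FLT-Sham replicates 4, 6, 8 and 9. It was 0, 2.81, 3.18 and 3.70 in G-Surgery replicates 1, 3, 4 and 5, and 4.01, 1.54 and -0.30 in FLT-Surgery replicates 1, 3 and 5. FLT-Sham was the tightest group (SD 0.45) and lay above all 11 other arrays, whereas G-Sham (SD 3.97) took in the ranges of both Surgery groups. The Cy5 signal ran from 4625 to 17251 in FLT-Sham, 20.3 to 3069 in G-Sham, 15.1 to 402 in G-Surgery and 19.2 to 150 in FLT-Surgery.

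Adipoq (chr16:23146536-23157968) encodes adiponectin, the insulin-sensitizing adipokine. Its log2 ratio was -0.82, 1.82, 0 and 3.81 in G-Sham replicates 1, 3, 4 and 5, and 4.48, 5.02, 1.63 and 4.51 in FLT-Sham replicates 4, 6, 8 and 9. It was 0, -0.94, -0.58 and -0.50 in G-Surgery and 2.18, -0.73 and -0.43 in FLT-Surgery. The only arrays above background were FLT-Sham replicates 4, 6 and 9 and G-Sham replicate 5. On the Surgery arrays the Cy5 signal did not exceed 54.9.

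Retn (chr8:3655770-3659818) encodes resistin, in mice a hormone of fat tissue. The log2 ratio of the brighter probe was 1.01, 1.33, 2.65 and 3.07 in G-Sham replicates 1, 3, 4 and 5, and 3.68, 3.47, 3.06 and 4.01 in FLT-Sham replicates 4, 6, 8 and 9. It was -0.65, 1.13, -1.95 and 0.56 in G-Surgery and 1.52, -0.11 and -1.05 in FLT-Surgery. FLT-Sham and G-Sham met at a single pair of arrays, and both Surgery groups lay mostly below the Sham groups. The second probe was above background on 3 arrays, FLT-Sham replicates 4, 6 and 9, at 2.16, 2.59 and 2.56, and was -1.04 in FLT-Sham replicate 8.

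Lep (chr6:29060221-29073876), the gene of the satiety hormone leptin, was not well above background in either channel on any array although it had 10 spots on each. Its Cy5 signal stayed between 17.3 and 31.2. Pparg (chr6:115360879-115490404), the regulator, also had 10 spots and varied little between groups. Its log2 ratio was -0.29 ± 0.86 in G-Sham, 0.07 ± 0.74 in FLT-Sham, 0.26 ± 0.09 in G-Surgery and -0.42 ± 0.56 in FLT-Surgery (SD), and the arrays of each pair of groups overlapped. In Cy5 signal the G-Surgery range (800 to 903) lay above the FLT-Surgery range (449 to 676).

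The first comparison asked what spaceflight did to the genes in mice without a defect, FLT-Sham against G-Sham. Of the 10 genes, 9 had Cy5 above background on at least 3 of the 8 arrays and were tested. All 9 were higher in FLT-Sham by their means, as were 61.1% of all 19737 probes tested, and the direction turned for Pparg with a further loess or without G-Sham replicate 1, and for Pparg and Scd1 with normexp background correction. Plin1 and Cidec rose past the cut-off used here, at least a 2-fold difference with limma's p, before adjustment, no larger than 0.01, which 1.79% of all probes tested passed as higher. Adipoq, Cidec, Plin1 and Scd1 had too few G-Sham arrays above background to enter the test without FLT-Sham (1, 1, 0 and 2), so the counts describe the genes and test nothing by themselves. The median log2 fold change over the 9 was 2.50, beside 0.24 over all probes.

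Plin1 was higher by 2.50 on the log2 scale (SE 0.55, 95% CI 1.24 to 3.76, limma p = 0.00161, adjusted p = 0.387 over all probes), with no overlap between the groups (exact permutation test, p = 0.0286, two-sided, the smallest that 4 against 4 arrays allow). Since no G-Sham array measured it, it was at least 2.34-fold higher in FLT-Sham by the Cy5 channel, in which the groups overlapped. Cidec was higher by 4.23 (SE 1.06, 95% CI 1.82 to 6.63, limma p = 0.00335, adjusted p = 0.412, exact permutation p = 0.0571), with G-Sham replicate 5 inside the FLT-Sham range. Its difference was 0.95, not past the cut-off, when ratios of exactly 0 were left out, and its second probe was not tested. The differences of Plin1 and Cidec were 1.79 and 2.94 with Cy5 alone and 0.52 and 0.66 with normexp, and neither gene passed the cut-off under either setting.

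The secreted genes were higher in FLT-Sham without passing the cut-off. Cfd differed by 5.09 (SE 1.68, 95% CI 1.27 to 8.92, adjusted p = 0.493) and its groups did not overlap, which 3.64% of all probes did as higher (exact permutation p = 0.0286). Adipoq differed by 2.71 (SE 1.10, 95% CI 0.21 to 5.21, adjusted p = 0.51). Retn differed by 1.54 (SE 0.52, 95% CI 0.37 to 2.71, adjusted p = 0.493) with the brighter probe and by 2.55 (SE 0.91, adjusted p = 0.501) with the second, which was at least 2.38-fold higher. Fabp4 differed by 3.39 (SE 1.42, 95% CI 0.16 to 6.62, adjusted p = 0.515). Lpl (1.30, SE 0.75), Scd1 (1.32, SE 0.64) and Pparg (0.36, SE 0.54) had intervals that included 0.

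No gene of the 10 had an adjusted p of at most 0.05 here, nor did any other probe tested by limma. The confidence interval left out 0 for 6 of the 9, that is with limma's p before adjustment at or under 0.05, as did 9.57% of all probes. The count past the cut-off was 1 without G-Sham replicate 3 or 4 or FLT-Sham replicate 4, 0 without FLT-Sham replicate 6 or 9, 4 without FLT-Sham replicate 8 and 5 without G-Sham replicate 5. With slide as a block it was 1, since Plin1 passed with 2.82 and Cidec missed with 3.77. Cidec also missed it without G-Sham replicate 1, 3 or 4 or FLT-Sham replicate 6 or 9, and Plin1 had too few arrays above background to be tested without FLT-Sham replicate 4, 6 or 9. Within slides 1 and 2 the direction was the same for 8 of the 9 genes, Pparg being lower in FLT-Sham on slide 1.

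**Figure D2:**
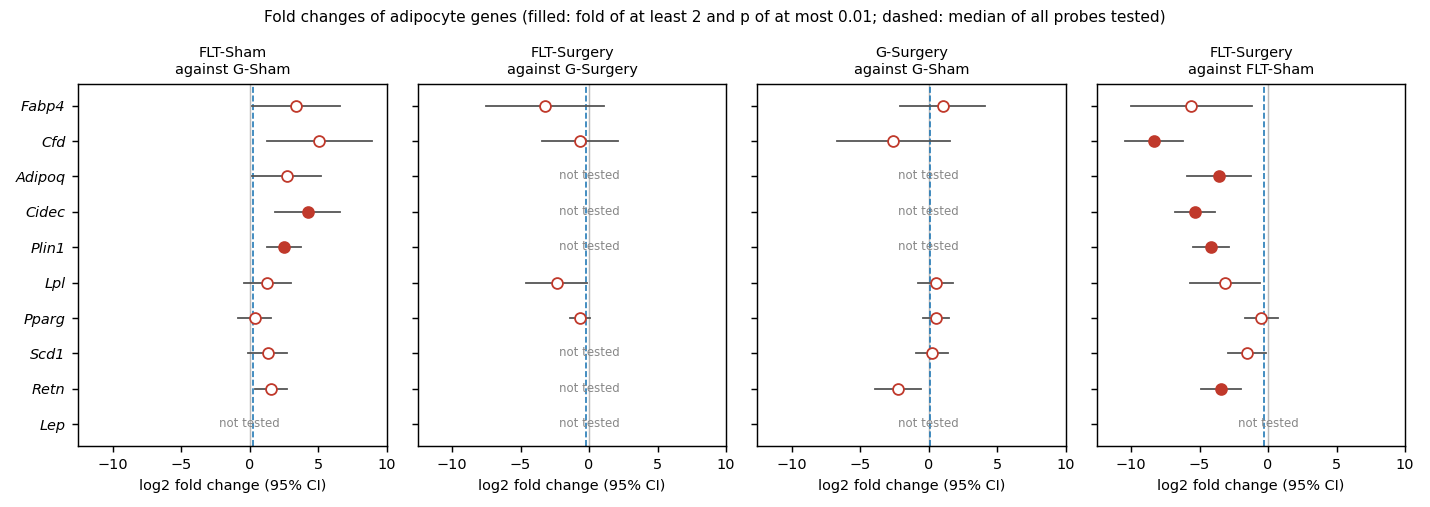
Log2 fold change (horizontal axis) with its 95% confidence interval from limma for each gene in the 4 comparisons, filled where the gene passed the cut-off, with the median of all probes tested as a dashed line. Filled points are Cidec and Plin1 in FLT-Sham against G-Sham and Cfd, Adipoq, Cidec, Plin1 and Retn in FLT-Surgery against FLT-Sham.

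Related genes of adipocytes were read from 8 lists of 81 genes in all. In FLT-Sham against G-Sham 60 were tested, 49 of them higher and 11 lower, and 7 of the 8 list medians lay above the median of all probes. Past the cut-off as higher were 5: Klf5, an early regulator of adipocyte formation (2.23), Cidea, a droplet protein related to Cidec (3.12), Mgll, the last lipase of triglyceride breakdown (1.55), Thrsp, a lipogenic factor (4.17), and Adig, adipogenin (1.91). Rxra, the partner of PPARγ, was past it as lower (-1.44). None had an adjusted p of at most 0.05. Klf5, Cidea and Thrsp were above background on no G-Sham array and entered the test through FLT-Sham. The counts of related genes therefore describe them and test nothing by themselves. Klf5, Mgll and Rxra missed the cut-off with a further loess and Thrsp with Cy5 alone. With normexp 1 of the related genes passed it as higher, and the direction of Klf5 turned. Transcription regulators had a median of 1.25, fatty acid and triglyceride synthesis 1.08 and droplet and lipolysis genes 0.97.

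Marker genes of other cells were read beside the adipocyte genes. Of the 6 osteoblast genes tested, with a median of 0.86, Ibsp, a sialoprotein of bone matrix, passed the cut-off as higher (2.35) and missed it with a further loess (1.59) and with Cy5 alone (1.58). All 4 erythroid genes tested were higher, with a median of 2.48 and 0 past the cut-off. The 6 neutrophil genes had a median of 1.05 and the 8 skeletal muscle genes one of 0.34, with 0 past the cut-off in both lists. The muscle median was -0.17 with a further loess, 1.52 with Cy5 alone and 1.22 with normexp. Summed Cy5 of the muscle genes overlapped between G-Sham (212498 to 1892020) and FLT-Sham (417216 to 5256900). The part of these cells in the difference of the adipocyte genes was not tested. Of 6 genes listed for brown adipocytes, Ucp1, Prdm16 and Elovl3 were above background on no array. The list also holds Cox8b, which was detected, and 2 to 3 of its genes were above background on each array.

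The second comparison asked what spaceflight did in mice with a defect, FLT-Surgery against G-Surgery. Only Fabp4, Cfd, Lpl and Pparg could be tested, because the other 6 genes were above background on fewer than 3 of the 7 arrays. All 4 were lower in FLT-Surgery by their means, the direction of Pparg turning with a further loess and that of Cfd without FLT-Surgery replicate 5. Of all 16542 probes tested 37.8% were higher and so the others lower or at 0. None of the 4 passed the cut-off, which 2.09% of all probes passed as lower. The median over the 4 was -1.52, beside -0.20 over all probes.

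Lpl differed by -2.37 on the log2 scale (SE 0.95, 95% CI -4.58 to -0.17, adjusted p = 0.292), and by the second probe the value was -0.92 (adjusted p = 0.646). It was the 1 gene of 4 whose interval left out 0, beside 16.4% of all probes, and no probe tested by limma had an adjusted p of at most 0.05. Fabp4 differed by -3.24 (SE 1.84, adjusted p = 0.388), Cfd by -0.67 (SE 1.18, adjusted p = 0.788) and Pparg by -0.68 (SE 0.32, adjusted p = 0.324). With slide as a block Lpl passed the cut-off (-2.55, adjusted p = 0.115) and Fabp4 did not (-3.60, adjusted p = 0.156). Without FLT-Surgery replicate 1, the array with the high Fabp4 value, 2 genes passed it.

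Of the related genes 45 were tested here, 36 of them lower and 9 higher, and all 8 list medians lay below the median of all probes. Angptl4, an inhibitor of lipoprotein lipase, passed the cut-off as lower (-1.16), but missed it with a further loess (-0.77), with normexp (-0.53) and after median centring (-0.83). The largest changes were those of Cox8b (-3.94), a mitochondrial subunit of brown fat and muscle, and Car3 (-3.26), a carbonic anhydrase abundant in fat and muscle, neither past the cut-off. All 8 skeletal muscle genes were lower in FLT-Surgery, with a median of -1.87 and Myh2, a fast myosin, past the cut-off. Their summed Cy5 signal was 198410 to 954294 in G-Surgery and 26974 to 917900 in FLT-Surgery. The other marker lists had medians from -0.46 for macrophage to -1.88 for neutrophil genes, with erythroid genes at -1.50. The part of muscle in the lower Lpl and Car3 values, and of the other cells in the lower adipocyte values, was not tested.

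The third comparison asked what the defect did on the ground, G-Surgery against G-Sham. Of the 10 genes 6 were tested and none passed the cut-off, which 2.08% of all 17674 probes tested passed as higher and 0.509% as lower. Fabp4 (1.03), Pparg (0.55), Lpl (0.52) and Scd1 (0.22) were higher by their means and Cfd (-2.58) and Retn (-2.24) lower, beside 59.9% of all probes higher. The direction turned for Scd1 with a further loess, for Lpl and Scd1 with normexp, and for Fabp4 and Scd1 without G-Sham replicate 1. The median was 0.37, beside 0.14 over all probes.

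Retn in G-Surgery differed by -2.24 (SE 0.74, 95% CI -3.92 to -0.56, adjusted p = 0.362, exact permutation p = 0.0571) and was the 1 of 6 genes whose interval left out 0, beside 10.9% of all probes. None had an adjusted p of at most 0.05, which 0.0113% of all probes had. With slide as a block the difference of Retn was -1.49 (adjusted p = 0.916). Plin1 was below background on all 8 arrays and was not tested. The count past the cut-off was 1 without G-Sham replicate 1 and 1 without G-Surgery replicate 3.

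Among the related genes 48 were tested, 30 of them higher and 18 lower. Past the cut-off as higher were Cebpb, an early regulator of adipogenesis (1.36), Angptl4 (1.41), Fabp5, a fatty acid carrier of skin and macrophages (1.21), and Sncg, a synuclein of fat and neurons (1.18). Each of the 4 missed it under at least 1 other scaling, Sncg with a further loess (0.78), Cy5 alone (0.98), normexp (0.19) and median centring (0.97). After median centring 1 related gene passed it as higher. The largest changes were those of Pdgfrb, a receptor of stromal progenitors and pericytes (2.36), and Acsl1, which activates fatty acids (-1.46), neither past the cut-off. Of 4 erythroid genes tested all were lower, with a median of -1.72 and 1 past the cut-off. All 5 macrophage genes (median 0.82) and all 3 endothelial genes (median 0.85) tested were higher, with 0 past the cut-off in both lists. The medians were 0.19 for osteoblast, -0.15 for neutrophil and -0.44 for skeletal muscle genes. The part of these cells in the values above was not tested.

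The fourth comparison set the defect against no defect in flown mice, FLT-Surgery against FLT-Sham. It shares the FLT-Sham arrays with the first comparison, so its values are not separate evidence for the high FLT-Sham level. Of the 9 genes tested all were lower in FLT-Surgery by their means, the direction of Pparg turning with a further loess and that of Scd1 with normexp. Of all 19131 probes tested 41.5% were higher. Cfd, Cidec, Plin1, Adipoq and Retn fell past the cut-off, which 6.23% of all probes passed as lower. Every gene but Pparg needed the FLT-Sham arrays to enter the test: Fabp4 was above background on 2 FLT-Surgery arrays, Cfd, Lpl and Retn on 1, and Adipoq, Cidec, Plin1 and Scd1 on 0. The counts, Cfd included, therefore describe the genes and test nothing by themselves. The median over the 9 was -3.57, beside -0.28 over all probes.

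Cfd differed by -8.34 on the log2 scale (SE 0.92, 95% CI -10.47 to -6.22, limma p = 2.11e-05, adjusted p = 0.0397), and its 3 FLT-Surgery arrays lay below all 4 FLT-Sham arrays (exact permutation test, p = 0.0571, two-sided, the smallest that 4 against 3 arrays allow). Cidec differed by -5.32 (SE 0.62, limma p = 3.13e-05, adjusted p = 0.0397, exact permutation p = 0.0571) and was at least 3.60-fold higher in FLT-Sham. An adjusted p of at most 0.05 was reached by 0.0836% of probes, these 2 genes among them. The Cidec ratio was exactly 0 on all 3 FLT-Surgery arrays, none of which measured it, so its difference, SE and p rest on the spread of FLT-Sham alone and the lower bound on its fold is the measured statement. With slide as a block their differences were -7.86 and -5.29 and their adjusted p 0.215 and 0.231. Over the other settings and arrays left out, the adjusted p ranged from 0.00276 to 0.27 for Cfd and from 0.00124 to 0.285 for Cidec. Cidec could not be estimated when ratios of exactly 0 were left out. Cfd was above background in Cy5 on 1 of the 3 FLT-Surgery arrays, replicate 1. There its log2 ratio was 4.01, below the 9.66 to 10.72 of FLT-Sham. The Cfd ratios of FLT-Surgery replicates 3 and 5 are not measured levels. The size, SE and p of the Cfd difference rest partly on them.

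Plin1 differed by -4.17 (SE 0.58, limma p = 0.000106, adjusted p = 0.0736, exact permutation p = 0.0571) and was at least 2.28-fold higher in FLT-Sham. Retn differed by -3.43 (SE 0.62, limma p = 0.00061, adjusted p = 0.101, exact permutation p = 0.0571) with the brighter probe and by -3.60 (SE 0.89, adjusted p = 0.138) with the second, which was at least 2.41-fold higher in FLT-Sham. Adipoq differed by -3.57 (SE 1.01, limma p = 0.00801, adjusted p = 0.146, exact permutation p = 0.114) and was at least 3.39-fold higher in FLT-Sham, with FLT-Surgery replicate 1 inside the FLT-Sham range. The groups of Cfd, Cidec, Plin1 and Retn did not overlap, as in 10.6% of all probes. Fabp4 (-5.60, SE 1.90), Lpl (-3.15, SE 1.10) and Scd1 (-1.53, SE 0.61) missed the cut-off with intervals that left out 0, and Pparg was at -0.49 (SE 0.51). In all 8 of the 9 intervals left out 0, beside 24.3% of all probes.

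Past the cut-off were 3 genes without FLT-Sham replicate 4, 6 or 9, since Plin1 and Adipoq then had too few arrays above background to be tested. With a further loess Retn missed it (-2.68). With normexp Cfd (-5.67) and Retn (-1.33) passed it and Adipoq (-0.78), Cidec (-0.79) and Plin1 (-0.62) did not, and 0 genes passed where both channels had to be above background on every array. Adipoq missed it with slide as a block (-3.19, adjusted p = 0.335), without FLT-Surgery replicate 3 (-3.03) and without FLT-Surgery replicate 5 (-3.18). Within slides 1 and 2 the direction was the same for 8 of the 9 genes, the exception being Pparg.

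**Figure D3:**
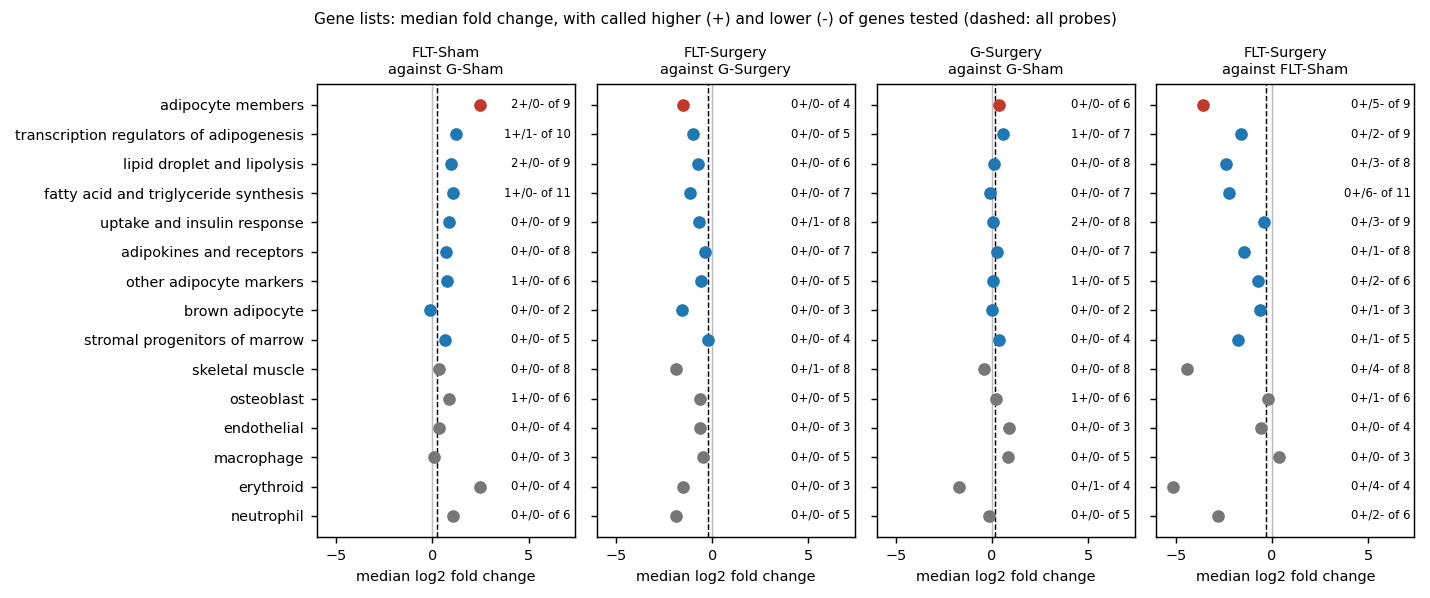
Median log2 fold change (horizontal axis) of the tested genes of each list in the 4 comparisons, adipocyte genes in red, related lists in blue and markers of other cells in grey, with the numbers past the cut-off as higher (+) and lower (-) beside each and the median of all probes as a dashed line. In FLT-Surgery against FLT-Sham the adipocyte genes lay at -3.57, skeletal muscle at -4.42 and erythroid genes at -5.15.

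Of the related genes 59 were tested here, 45 of them lower, and 19 fell past the cut-off, none with an adjusted p of at most 0.05. Of 11 tested genes of fatty acid and triglyceride synthesis 6 fell: Acacb (-2.94) and Me1 (-3.24), which supply malonyl-CoA and NADPH, Thrsp (-4.68), Gpd1 (-4.49), which supplies the glycerol backbone, and Dgat1 (-2.08) and Dgat2 (-2.24), which close the triglyceride. Of 8 droplet and lipolysis genes Cidea (-4.23), Plin5 (-3.55) and Mgll (-2.55) fell. Acsl1 (-5.66), the insulin-regulated glucose transporter Slc2a4 (-4.33) and Irs1 (-2.84), an insulin receptor substrate, fell in the uptake list. Klf5 (-2.36), Ppargc1a (-2.17), Rbp4 (-2.22), Adig (-3.21), Car3 (-4.51), Cox8b (-5.09) and Kitl (-2.50), a stem cell factor of marrow stroma, made up the rest. Slc2a4, Ppargc1a, Plin5, Car3 and Cox8b are also expressed in muscle. Klf5, Cidea, Plin5, Thrsp, Dgat1, Irs1, Rbp4 and Kitl were above background on no FLT-Surgery array and entered the test through FLT-Sham. The counts of related genes therefore describe them and test nothing by themselves. With a further loess 8 of the related genes and with normexp 5 passed the cut-off as lower, and Klf5 and Dgat1 turned their direction with normexp.

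Markers of some other cells fell beside them. Acta1, Mb, Actn3 and Myh2 of the 8 muscle genes passed the cut-off as lower (list median -4.42), as did all 4 erythroid genes tested (median -5.15) and 2 of 6 neutrophil genes (median -2.79). Summed Cy5 of the muscle genes was 26974 to 917900 in FLT-Surgery. Of the osteoblast genes Alpl, the bone alkaline phosphatase, was at -4.53 (limma adjusted p = 0.04) while the list median was -0.19. Of the 6 osteoblast genes tested 3 were higher and 3 lower. All 3 macrophage genes tested were higher (median 0.38), and of 4 endothelial genes tested 2 were higher and 2 lower (median -0.59). The adipocyte genes summed to 11078 to 61040 in FLT-Sham and 1450 to 9643 in FLT-Surgery. The part of muscle, blood cells and detection in the adipocyte values was not tested.

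Whether the spaceflight difference itself differed with the defect was tested as an interaction over all 15 arrays, Surgery difference minus Sham difference. It was below 0 for all 9 genes tested, though above 0 for Pparg and Retn with a further loess and for Scd1 with normexp, and passed the cut-off for Cidec (-4.23, 95% CI -6.88 to -1.58, adjusted p = 0.172) and Plin1 (-2.85, 95% CI -4.28 to -1.42, adjusted p = 0.167) in limma. Of all 21773 probes tested 39.2% were above 0 and 4.97% passed it as lower, and the median was -2.85 over the 9 genes beside -0.37 over all probes. Neither Plin1 nor the brighter probe of Cidec was above background on any Surgery array, so their Surgery difference was not measured. Cidec was at exactly 0 on all 7, and its interaction is the Sham difference with the sign turned. Fabp4 (-6.63, SE 2.48), Cfd (-5.76, SE 2.29) and Lpl (-3.67, SE 1.28) also had intervals that left out 0, as did 19.5% of all probes. The interaction medians of all 6 marker lists of other cells were below 0. They ran from -1.09 for macrophage to -3.60 for erythroid genes, with skeletal muscle at -2.87. The part of these cells in the interaction of the adipocyte genes was not tested.

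The number of genes past the cut-off in the interaction was 4 without G-Sham replicate 5 or FLT-Surgery replicate 1 and 1 without FLT-Sham replicate 4, 6 or 9. It was 1 with slide as a block, where Cidec gave -3.86 and missed it. Cidec and Plin1 both missed it with Cy5 alone (Cidec -2.96, Plin1 -1.89) and with normexp (Cidec -0.66, Plin1 -0.52). With normexp Cfd, above background on 1 FLT-Surgery array, passed the cut-off (-4.11). Among 63 related genes tested 51 were below 0 and 9 passed the cut-off as lower: Klf5, Cidea, Mgll, Abhd5, Dgat1, Irs1, Rbp4, Adig and Pdgfrb. With a further loess 3 and with normexp 1 of the related genes passed it as lower, and Klf5 and Dgat1 turned their direction with normexp. Klf5, Cidea and Dgat1 were above background on no Surgery array, so their Surgery difference was not measured. Abhd5, Irs1 and Rbp4 were above background on no FLT-Surgery array.

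The genes were also read together on each array, as the mean over the 9 detected genes after subtracting each gene's mean over the 15 arrays. This mean was 2.80, 2.72, 0.91 and 2.84 in FLT-Sham replicates 4, 6, 8 and 9, and -2.16, -0.12, -0.05 and 1.62 in G-Sham replicates 1, 3, 4 and 5. It was -1.32, -0.43, -1.10 and -0.79 in G-Surgery and -0.28, -2.02 and -2.62 in FLT-Surgery. All 9 genes were above their own mean in FLT-Sham replicates 4, 6 and 9, and 6 of 9 in replicate 8. G-Sham replicate 5 lay above FLT-Sham replicate 8, so the Sham groups overlapped.

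**Figure D4:**
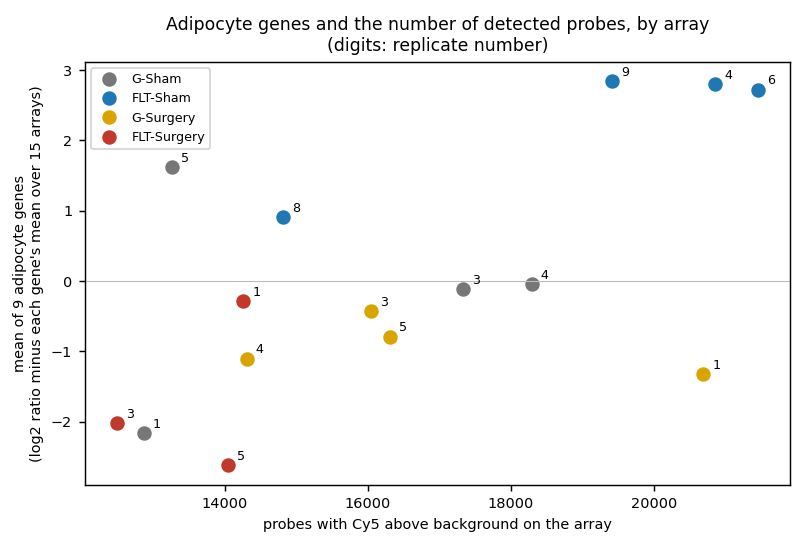
Mean of the 9 adipocyte genes (vertical axis, log2 ratio minus each gene's mean over 15 arrays) against the number of probes with Cy5 above background (horizontal axis), 1 point per array coloured by group and numbered by replicate. The 3 highest points, FLT-Sham replicates 4, 6 and 9, lie at 2.72 to 2.84.

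Over the 15 arrays all 36 pairs of the 9 genes correlated positively, with Pearson's r from 0.164 to 0.896 and a median of 0.657. With the mean of the other 8, r was 0.92 for Cfd, 0.89 for Adipoq and 0.87 for Cidec and lowest for Pparg, at 0.46. These are descriptions over arrays that share the 4 groups, the reference and differences in detection. The second probes followed the brighter ones unequally: r was 0.753 for Retn, 0.606 for Lpl and -0.514 for Cidec, and the largest difference on 1 array was 4.09, 4.69 and 7.04 on the log2 scale.

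**Figure D5:**
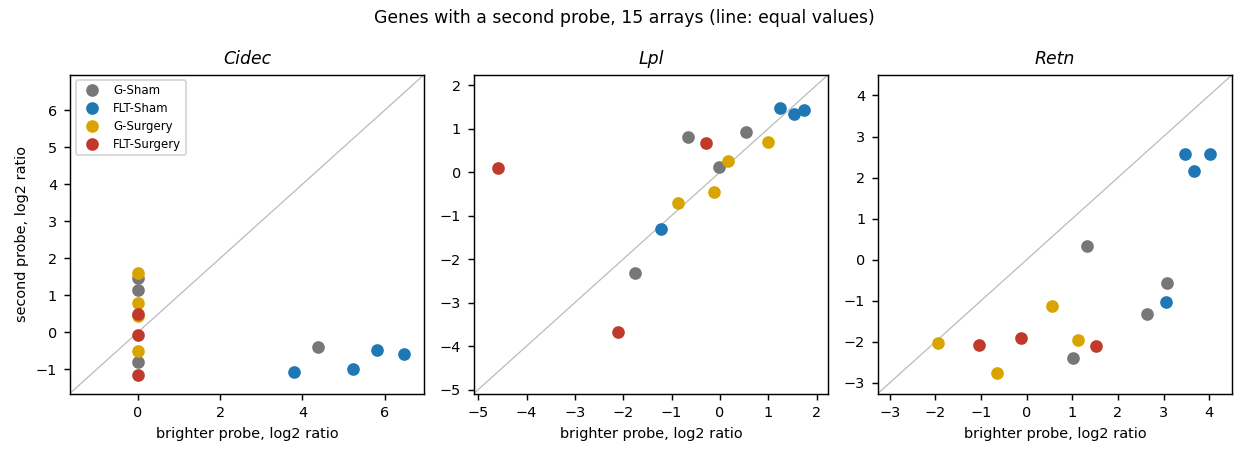
Log2 ratio of the second probe (vertical axis) against that of the brighter probe (horizontal axis) for Cidec, Lpl and Retn, 1 point per array coloured by group, with a line of equal values. The Cidec points at high values of the brighter probe, from 3.80 to 6.46 in FLT-Sham, lie far below the line.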

How the data were processed

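The authors hybridized sample RNA in Cy5 and Universal Mouse Reference RNA in Cy3 to Agilent arrays, and their deposited scanner files hold intensity values per spot (raw median and processed signals) and a LogRatio, the log10 of processed Cy5 over Cy3, made by Feature Extraction 12.0.3.1 per the file headers. The deposited value table holds the same log10 ratios. The authors' LogRatio was turned into log2 and not normalized further, outlier spots were left out and spots of a probe averaged. Probes were named through RefSeq accessions (GRCm38.p6). A probe was tested if Cy5 was well above background on at least 3 of the arrays compared.

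R 4.3.3 and limma 3.58.1 were used, each pairwise fit holding only its own 2 groups and the interaction all 15 arrays. A probe passed the cut-off with a difference of 2-fold or more and limma's p, before adjustment, no larger than 0.01. Adjusted p are Benjamini-Hochberg values over all probes tested. Exact permutation tests were two-sided. A gene was read by the probe with the highest mean Cy5. "At least" folds compare Cy5 after Aquantile scaling with the lowest signal above background and are open to dye bias, since dyes were not swapped. The named genes were the 10 members, the genes of the related lists past the cut-off and the 2 largest changes per comparison. Members and lists were chosen with earlier results of these data known. Mice were the replicates. One listed marker is not reported here.

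Alternatives were a further loess, Cy5 alone after quantile scaling, normexp (offset 50) with loess, on median signals because the files hold those, median centring, the value table, 2 other filters, all arrays in one fit, slide and replicate number as blocks, a mean over probes and each array left out. Leaving out log ratios of exactly 0 was chosen after seeing the data. The fits were tested on simulated data. Python 3.11.15 with numpy 2.4.6, pandas 2.3.3, scipy 1.17.1 and matplotlib 3.10.9 made summaries, permutation tests and plots.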

Additional observations from a re-analysis of the deposited data

Results flagged for a closer look

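In FLT-Sham, replicate 8 stood apart from the other arrays for 2 genes. Its Fabp4 log2 ratio was 4.19 where the others lay between 6.95 and 7.41, and its Adipoq log2 ratio was 1.63 where they lay between 4.48 and 5.02. The same array had 14812 probes above background in Cy5 where the others had 19420 to 21460. Its summed Cy5 was 417216 for muscle genes (others 3015600 to 5256900) and 22920.5 for erythroid genes (others 99811 to 132048), so its low signal was not particular to the adipocyte genes. In G-Sham the Cidec log2 ratio of replicate 5 was 4.38 where the other 3 arrays were at exactly 0. Of 33 groups of arrays looked at for such a gap 3 had one, and chance gives about 1 in 20 groups, or 1.65 of 33.

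The interaction fit of limma put 2 genes past the cut-off for a spaceflight difference that differs with the defect. For Cidec the Surgery difference minus the Sham difference was -4.23 (adjusted p = 0.172), and for Plin1 it was -2.85 (adjusted p = 0.167). Neither passed an adjusted threshold of 0.05, and both missed the cut-off with Cy5 alone (-2.96 and -1.89) and with normexp (-0.66 and -0.52). Neither Plin1 nor the brighter probe of Cidec was above background on any Surgery array, so the Surgery difference was not measured. The Cidec value is its Sham difference with the sign turned.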

How the results depend on the processing

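Of 471 values of the 28 member fold changes under other settings or with 1 array left out, 458 kept their direction and 13 did not, 25 newly passed the cut-off and 19 no longer passed it. The number of members past the cut-off in FLT-Sham against G-Sham, 2, was 0 with Cy5 alone, 1 with normexp, 1 with both channels above background on every array, 1 with slide as a block, 1 with ratios of exactly 0 left out, and 0 to 5 with an array left out. In FLT-Surgery against G-Surgery, 0, it was 1 with slide as a block and 0 to 2 with an array left out. In G-Surgery against G-Sham, 0, it was 1 with a further loess, 1 with Cy5 alone, 1 with median centring, 1 with no filter, 1 with all 15 arrays in one fit, and 0 to 1 with an array left out. In FLT-Surgery against FLT-Sham, 5, it was 2 with normexp, 0 with both channels above background, 4 with a further loess, slide as a block, no filter or ratios of exactly 0 left out, 7 with all 15 arrays in one fit and 3 to 7 with an array left out. In the interaction, 2, it was 0 with Cy5 alone, 1 with normexp, 0 with both channels above background, 1 with slide as a block, 0 with ratios of exactly 0 left out and 1 to 4 with an array left out. The filter on both channels left 0 to 2 members to test.

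The direction turned for Pparg in FLT-Sham against G-Sham (-0.17 with a further loess, -0.010 with normexp, -0.0079 to 0.72 with an array left out, the lowest without G-Sham replicate 1), in FLT-Surgery against G-Surgery (0.12 with a further loess) and in FLT-Surgery against FLT-Sham (0.46 with a further loess). It turned for Scd1 in FLT-Sham against G-Sham (-0.088 with normexp), in G-Surgery against G-Sham (-0.079 with a further loess, -0.075 with normexp, -0.11 to 0.66 with an array left out, the lowest without G-Sham replicate 1) and in FLT-Surgery against FLT-Sham (0.25 with normexp). It also turned for Lpl in G-Surgery against G-Sham with normexp (-0.097), for Fabp4 there without G-Sham replicate 1 (-0.37 to 1.98 with an array left out), and for Cfd in FLT-Surgery against G-Surgery without FLT-Surgery replicate 5 (-1.80 to 0.35 with an array left out). The causes were not tested.

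The median of all probes moved with the scaling, between -0.40 and 0.50 over all settings and comparisons, so directions hold relative to it. Among all probes past the cut-off, the share that was higher moved from 89.6% to 30.3% with normexp in FLT-Sham against G-Sham, from 33.3% to 95.1% with a further loess in FLT-Surgery against G-Surgery, from 80.3% to 40.2% with normexp in G-Surgery against G-Sham, from 6.37% to 52.3% and from 6.72% to 74.9% with a further loess in FLT-Surgery against FLT-Sham and the interaction. The number of all probes past it in FLT-Sham against G-Sham was 394, but 33 with normexp, 683 with no filter and 2068 without FLT-Sham replicate 8, and in FLT-Surgery against FLT-Sham 1272, but 296 with normexp and 4912 without FLT-Sham replicate 8. In FLT-Surgery against G-Surgery it was 519, but 2053 without FLT-Surgery replicate 1. With the replicate block, that is with equal replicate numbers as pairs, 0 members passed the cut-off in FLT-Surgery against G-Surgery and 0 in G-Surgery against G-Sham, as without it. Over 7 same-numbered pairs the correlation of deviations exceeded 0.1 in 2, so the numbers were not taken as pairs, and the other groups compared share fewer than 2 numbers. Signal over background limits Lep everywhere and Cidec, Plin1 and Adipoq in the Surgery groups.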

Other observations

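Among 6394 genes with Cy5 above background on at least 12 arrays, those whose log2 ratios over the 15 arrays ran most like the mean of the adipocyte genes were Tma7 (r = 0.964), Gm5523 (r = 0.953), 1190007I07Rik (r = 0.953), Sgk3 (r = 0.948) and Mrps33 (r = 0.947). These correlations are a description over arrays that share the 4 groups, the reference and differences in the number of detected probes.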
